A study of Homo sapiens with 3 samples.

Results

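The ZEB, SNAI and TWIST families and PRRX1 hold the transcription factors best known for driving epithelial-mesenchymal transition (EMT), the switch by which epithelial cells loosen their contacts and gain motility. Their 7 genes, ZEB1, ZEB2, SNAI1, SNAI2, TWIST1, TWIST2 and PRRX1, were taken by gene name from a deposited table of 58735 genes. All 7 were in the table, and 6 had a mean of at least 1 FPKM (fragments per kilobase of gene, scaled by a depth factor of each library) over the libraries. The values came from RNA sequencing of 3 libraries, 1 in each group. All are labelled HCT116, a line grown from a human colorectal carcinoma. The groups were cells overexpressing ZEB1 K80R, in which a lysine of the protein is replaced by arginine, cells overexpressing wild-type ZEB1, and cells with an empty vector. The labels give control as the treatment of all groups and name neither the vector nor its promoter, nor whether each line is a clone. By its title, the study asked how the K80R form acts on NF-κB signalling, EMT and inflammatory genes. There were no replicates, so every comparison is of single libraries and has no test. Intervals in brackets are exact 95% intervals that cover counting error only.

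ZEB1 and ZEB2 are zinc-finger and homeodomain proteins that bind E-boxes, short DNA motifs, and repress epithelial genes such as CDH1, the E-cadherin gene. SNAI1 (Snail) and SNAI2 (Slug) are zinc-finger repressors of the same kind of site. TWIST1 and TWIST2 are basic helix-loop-helix (bHLH) proteins that pair with E proteins such as TCF3, and PRRX1 is a homeodomain factor of mesenchymal development. In colorectal tumours these factors are known for their expression in invading cells and in the stroma. A level in bulk RNA does not tell fewer cells with a transcript from less transcript per cell.

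Reads per gene recovered from the deposited FPKM summed to 13479517 for ZEB1 K80R, 14322537 for wild-type ZEB1 and 14764535 for the empty vector. The depths implied by the deposited FPKM were not these totals but 13321338, 13795840 and 15886593 in the same order. Ratios of FPKM to the empty vector are therefore higher than ratios scaled by the read totals. The empty vector library stood apart in the spread of its reads over genes. There were 2902 genes with exactly 1 read with ZEB1 K80R, 2705 with wild-type ZEB1 and 350 with the empty vector. The mitochondrial share of reads was 9.75% with ZEB1 K80R, 7.77% with wild-type ZEB1 and 1.29% with the empty vector. Ratios to the empty vector rest on that library, while the ratio of ZEB1 K80R to wild-type ZEB1 does not. Markers of colon epithelium went against the HCT116 label. Of 18 such markers, 10 had 0 reads in all 3 libraries, among them CDH1, EPCAM, CDX2 and VIL1, and only the keratins KRT8 and KRT18 reached a mean of 1 FPKM. The markers summed to 90.2, 101.7 and 93.0 FPKM in the ZEB1 K80R, wild-type ZEB1 and empty vector libraries. Of 10 fibroblast markers, 5 were at 0 reads throughout, LUM and PDGFRA among them, and 2, COL1A1 and PDGFRB, reached a mean of 1 FPKM. The 10 summed to 2.40, 3.38 and 2.83 FPKM in that order. Other mesenchymal genes, such as VIM and SPARC, were abundant. The mesenchymal list described further on summed to 3006.5, 3538 and 2077 FPKM, though 4 of its 33 genes had no read in any library. Of the other marker lists, glia and neuron summed to 52.0, 46.7 and 74.1 FPKM, nearly all from NEFL, melanocyte to 3.03, 2.64 and 3.21 FPKM, endothelium to 0.470, 0.610 and 0.130 FPKM, and leukocyte to 0.119, 0.0411 and 0.271 FPKM. Their part in the results was not tested.

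ZEB1, the introduced gene, was higher with either form of overexpression than with the empty vector. ZEB1 (ENSG00000148516, GRCh38 chr10:31318495-31529814, plus strand) stood at 10.3 FPKM from 1188 reads with ZEB1 K80R, 9.83 FPKM from 1173 reads with wild-type ZEB1 and 5.66 FPKM from 778 reads with the empty vector. The counting intervals of the overexpression libraries, 9.73 to 10.9 and 9.28 to 10.4 FPKM, overlapped each other and lay above the empty vector interval of 5.27 to 6.07 FPKM. The empty vector level exceeded 69.8% of protein-coding genes in that library. The table gives ZEB1 a length of 8650 bases, while its coding sequence spans 3375 bases in GENCODE 29. Reads of an introduced coding sequence and of the endogenous gene are summed in the table.

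ZEB1-AS1, an antisense transcript whose gene overlaps the start of ZEB1 (chr10:31206278-31320447, minus strand), ran the other way. It stood at 1.61 FPKM from 82 reads with ZEB1 K80R, 2.46 FPKM from 130 reads with wild-type ZEB1 and 3.50 FPKM from 213 reads with the empty vector. The ratio of ZEB1 K80R to empty vector was 0.459 (0.351 to 0.595), and that of wild-type ZEB1 to empty vector was 0.703 (0.561 to 0.878). Between the 2 overexpression libraries the ratio of ZEB1 K80R to wild-type ZEB1 was 0.653 (0.489 to 0.868). The sources used here do not say whether counting used the strand, so reads of the shared stretch could belong to either gene. The ZEB1 level was 6.42, 3.996 and 1.62 times that of ZEB1-AS1 per length in the ZEB1 K80R, wild-type ZEB1 and empty vector libraries.

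Some ZEB1 promoter windows hold the E-box that ZEB and SNAI proteins bind, searched as CAGGTG on both strands. RefSeq (GRCh38.p14) gave 10 promoter windows for 4 of the 7 genes, each running from 250 bases before a start to 50 after it. The motif was in 2 of 7 ZEB1 windows and in none of the windows of ZEB2, TWIST2 or PRRX1, against 20.6% of 35116 windows of all genes. The most upstream ZEB1 window holds the motif 57 bases before the start, upstream of ZEB1 and within the span of ZEB1-AS1. It is shown because ZEB1 is both the introduced factor and a gene with this motif, which is in capitals (chr10:31318303-31318416, plus strand).
ZEB1 promoter: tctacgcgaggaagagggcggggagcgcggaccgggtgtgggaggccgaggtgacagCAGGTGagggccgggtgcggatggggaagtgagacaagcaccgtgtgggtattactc
Such a match is a description of the letters and not a bound site.

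ZEB2, the paralogue of ZEB1, was expressed at a low level in every library. ZEB2 (ENSG00000169554, chr2:144364364-144524583, minus strand) stood at 1.23 FPKM from 409 reads with ZEB1 K80R, 1.78 FPKM from 615 reads with wild-type ZEB1 and 1.03 FPKM from 411 reads with the empty vector. Its wild-type ZEB1 interval, 1.64 to 1.93 FPKM, lay above those of the other libraries, 1.11 to 1.35 FPKM for ZEB1 K80R and 0.935 to 1.14 FPKM for the empty vector, which overlapped. The ZEB1 to ZEB2 ratio per length was 8.41 with ZEB1 K80R, 5.53 with wild-type ZEB1 and 5.48 with the empty vector. These ratios depend on the length of 25058 bases given to ZEB2, since its longest protein-coding transcript has 9583 bases. By that length ZEB2 stood at 3.20, 4.65 and 2.70 FPKM in the same order, a choice made after the data were seen. ZEB2-AS1, the antisense neighbour of ZEB2, had 4 reads with ZEB1 K80R and 0 in both others.

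ZEB1 and ZEB2 are the known targets of the miR-200 family, which ZEB factors repress in turn. The 5 precursor genes of the family and the host gene MIR200CHG were listed at 0 in all 3 libraries, though a library of mRNA does not measure mature miRNAs. The mature sequences are shown because they share 2 seeds (bases 2 to 8, in capitals) whose matches recur in the ZEB transcripts, the first seed in 3 of the miRNAs and the second in 2 (RefSeq, GRCh38.p14, chromosomes 1 and 12).
hsa-miR-200b-3p: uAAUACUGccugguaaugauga
hsa-miR-200c-3p: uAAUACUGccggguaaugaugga
hsa-miR-429: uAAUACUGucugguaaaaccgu
hsa-miR-200a-3p: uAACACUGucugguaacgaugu
hsa-miR-141-3p: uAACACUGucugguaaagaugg
The longest 3′ UTR of ZEB1 in GENCODE 29, of 2549 bases, held 6 matches to the first seed (CAGTATT) and 3 to the second (CAGTGTT). The longest 3′ UTR of ZEB2, of 5370 bases, held 5 and 4. The match nearest the stop codon is shown for the first seed in each gene, with the match in capitals, at chr10:31527617-31527643 (plus strand) for ZEB1 and chr2:144389049-144389075 (minus strand) for ZEB2.
ZEB1 site: cattgttttatcttatCAGTATTatca
ZEB2 site: ccgcactaccatacatCAGTATTttta

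The SNAI genes were highest with wild-type ZEB1. SNAI1 (ENSG00000124216, chr20:49982999-49988886, plus strand) stood at 3.12 FPKM from 70 reads with ZEB1 K80R, 5.93 FPKM from 138 reads with wild-type ZEB1 and 3.55 FPKM from 95 reads with the empty vector. The wild-type ZEB1 interval, 4.98 to 7.01 FPKM, lay above the ZEB1 K80R interval of 2.43 to 3.94 and the empty vector interval of 2.87 to 4.34, which overlapped. SNAI2 (ENSG00000019549, chr8:48917604-48921740, minus strand) stood at 5.33 FPKM from 241 reads with ZEB1 K80R, 10.6 FPKM from 496 reads with wild-type ZEB1 and 3.02 FPKM from 163 reads with the empty vector. The intervals of SNAI2 did not overlap between any of the libraries. SNAI2 was at 1.71 times the level of SNAI1 with ZEB1 K80R, 1.79 times with wild-type ZEB1 and 0.853 times with the empty vector. In the empty vector library the intervals of both genes overlapped. SNAI3, the family member with no settled part in EMT, stood at 0.997, 0.753 and 1.27 FPKM in the ZEB1 K80R, wild-type ZEB1 and empty vector libraries, from 23, 18 and 35 reads.

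The TWIST genes were likewise highest with wild-type ZEB1. TWIST1 (ENSG00000122691, chr7:19020991-19117672, minus strand) stood at 3.10 FPKM with ZEB1 K80R, 6.88 FPKM with wild-type ZEB1 and 2.60 FPKM with the empty vector, from 84, 193 and 84 reads. Its wild-type ZEB1 interval of 5.94 to 7.92 FPKM lay above those of ZEB1 K80R, 2.47 to 3.84 FPKM, and of the empty vector, 2.07 to 3.22 FPKM, which overlapped. TWIST2 (ENSG00000233608, chr2:238848032-238910543, plus strand), the most abundant of the 7 per length of the table, stood at 10.4 FPKM with ZEB1 K80R, 13.7 FPKM with wild-type ZEB1 and 9.12 FPKM with the empty vector, from 261, 356 and 272 reads. Its wild-type ZEB1 interval of 12.4 to 15.2 FPKM lay above those of ZEB1 K80R, 9.21 to 11.8 FPKM, and of the empty vector, 8.07 to 10.3 FPKM. TWIST2 was at 3.36, 1.997 and 3.51 times the level of TWIST1 in the ZEB1 K80R, wild-type ZEB1 and empty vector libraries. The bHLH regions of both genes are closely alike, and the sources used here do not say how reads that match both were counted.

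PRRX1 was at the limit of detection. PRRX1 (ENSG00000116132, chr1:170662728-170739419, plus strand) had 3 reads with ZEB1 K80R, 2 with wild-type ZEB1 and 0 with the empty vector, at 0.0273, 0.0176 and 0 FPKM. A count of 0 allows up to 3 reads, which is 0.0229 FPKM with the empty vector, and the exact interval drawn for that library ends at 0.0282 FPKM. No difference was detectable at this depth. Its paralogue PRRX2 was listed at 0 in all 3 libraries.

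**Figure D1:**
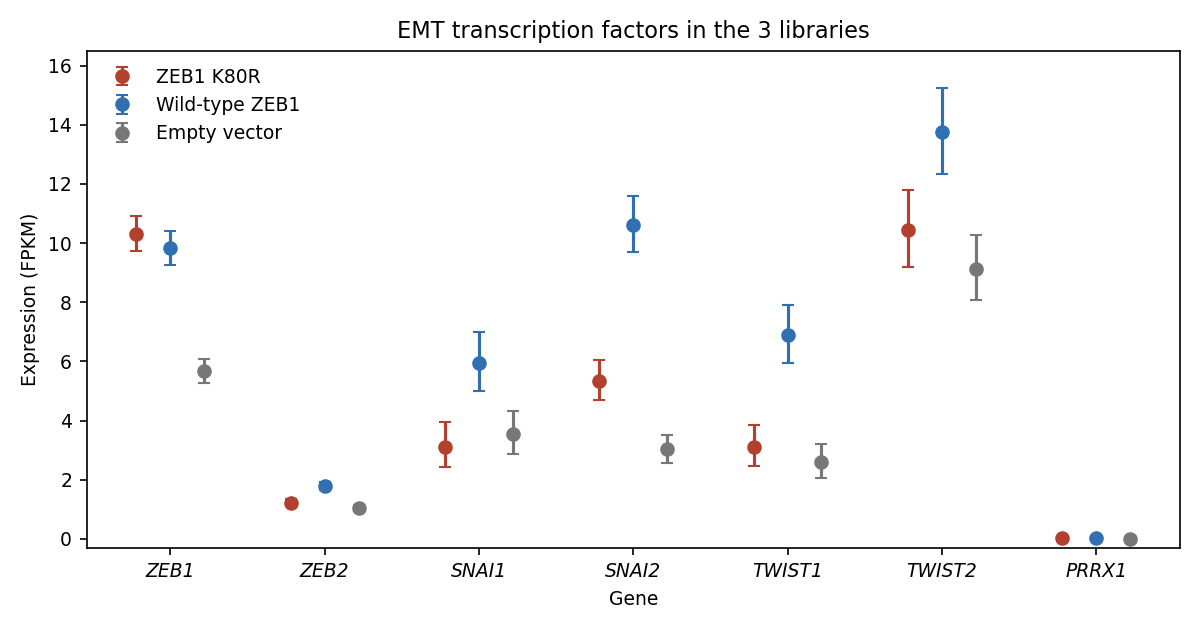
Level of each of the 7 genes in FPKM (linear axis) in the ZEB1 K80R (red), wild-type ZEB1 (blue) and empty vector (grey) libraries, 1 library each; points are the deposited values and bars exact 95% Poisson counting intervals. ZEB1 is high in both overexpression libraries, at 10.3 and 9.83 FPKM, while SNAI1, SNAI2, TWIST1, TWIST2 and ZEB2 are highest with wild-type ZEB1 and PRRX1 lies near 0.

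The order of the levels differed little between libraries. In the ZEB1 K80R library it ran TWIST2, ZEB1, SNAI2, SNAI1, TWIST1, ZEB2 and PRRX1, where TWIST2 and ZEB1, and SNAI1 and TWIST1, overlapped in their intervals. In the wild-type ZEB1 library it ran TWIST2, SNAI2, ZEB1, TWIST1, SNAI1, ZEB2 and PRRX1, where SNAI2 and ZEB1, and TWIST1 and SNAI1, overlapped. In the empty vector library it ran TWIST2, ZEB1, SNAI1, SNAI2, TWIST1, ZEB2 and PRRX1, where SNAI1 overlapped with SNAI2 and SNAI2 with TWIST1. By the length of the longest protein-coding transcript ZEB1 and TWIST2 changed places with ZEB1 K80R, at 14.2 and 14.0 FPKM, ZEB2 came before SNAI1 and after TWIST1 there, and SNAI2 came before SNAI1 with the empty vector. Summed over the 7 genes, the levels came to 33.5 FPKM with ZEB1 K80R, 48.8 with wild-type ZEB1 and 25.0 with the empty vector. Without ZEB1 these sums were 23.2, 39.0 and 19.3 FPKM. Among all protein-coding genes TWIST2 ranked above 80.7%, 84.3% and 78.1% in the same order, and SNAI2 above 68.7%, 80.2% and 60.3%. ZEB2, in contrast, ranked above 49.6%, 53.3% and 48.9%, near the middle of the genes.

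Against wild-type ZEB1, the ZEB1 K80R library had less of every measured factor except ZEB1 itself. ZEB1 had a ratio of ZEB1 K80R to wild-type ZEB1 of 1.05 (0.967 to 1.14). The ratio was 0.451 (0.345 to 0.585) for TWIST1, 0.503 (0.430 to 0.588) for SNAI2 and 0.525 (0.388 to 0.705) for SNAI1. It was 0.689 (0.606 to 0.782) for ZEB2 and 0.759 (0.645 to 0.893) for TWIST2. The intervals of these 5 genes lay below 1, and that of ZEB1 held 1. How many of all genes had intervals clear of 1 was not counted. Genes outside the factors had them too, such as VIM at 0.798 (0.786 to 0.810) and CDH2 at 1.21 (1.14 to 1.29). Of the 6 genes measured, 3 were lower by at least 1.5-fold in FPKM + 1 and none was higher, where 5.18% of 12605 genes with a mean of at least 1 FPKM were lower by that rule and 4.42% higher. Differences of log2(FPKM + 1) were −0.94 for TWIST1, −0.87 for SNAI2 and −0.75 for SNAI1, and 1.35%, 1.62% and 2.51% of the 12605 genes had a difference as low or lower. The median difference was −0.56 over the 6 genes and −0.02 over the 12605. All 5 genes stayed lower with ZEB1 K80R under each of the 7 alternative settings that kept them, the rescalings included.

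**Figure D2:**
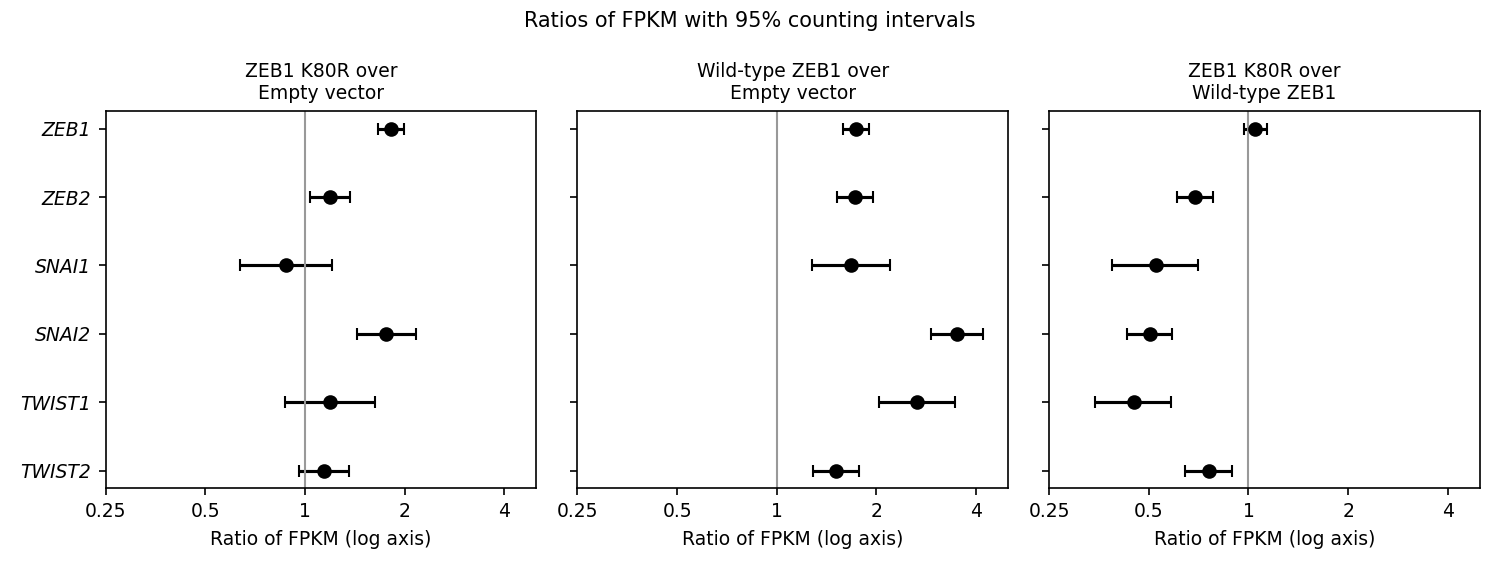
Ratio of FPKM (log axis) for ZEB1 K80R over empty vector, wild-type ZEB1 over empty vector and ZEB1 K80R over wild-type ZEB1, 1 library each, with exact 95% counting intervals as bars and a grey line at 1; PRRX1 is left out for its few reads. In the panel of ZEB1 K80R over wild-type ZEB1 every gene but ZEB1 lies below 1, with TWIST1 at 0.451, SNAI2 at 0.503 and SNAI1 at 0.525.

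Against the empty vector, the wild-type ZEB1 library had more of all 6 measured factors. The ratio of wild-type ZEB1 to empty vector was 3.50 (2.93 to 4.21) for SNAI2 and 2.65 (2.04 to 3.46) for TWIST1. It was 1.74 (1.58 to 1.90) for ZEB1, 1.72 (1.52 to 1.96) for ZEB2, 1.67 (1.28 to 2.20) for SNAI1 and 1.51 (1.28 to 1.77) for TWIST2. SNAI2, TWIST1, ZEB1 and SNAI1 were higher by at least 1.5-fold in FPKM + 1 and none was lower, where 14.2% of the 12605 genes were higher and 11.1% lower. SNAI2 differed by 1.53 on the log2(FPKM + 1) scale and TWIST1 by 1.13, as high as or higher than all but 2.17% and 4.28% of those genes. ZEB1 differed by 0.70, and 10.7% of genes differed by as much or more. When the libraries were rescaled to a common sum of FPKM, which shifts the median gene by −0.46, only SNAI2 (1.29) and TWIST1 (0.89) stayed past 1.5-fold, and all 6 kept a positive sign.

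Against the empty vector, the ZEB1 K80R library had more ZEB1 and SNAI2 and, in the deposited values, little difference in the other factors. The ratio of ZEB1 K80R to empty vector was 1.82 (1.66 to 1.996) for ZEB1 and 1.76 (1.44 to 2.16) for SNAI2. It was 1.19 (1.03 to 1.36) for ZEB2, 1.19 (0.871 to 1.63) for TWIST1, 1.14 (0.962 to 1.36) for TWIST2 and 0.879 (0.636 to 1.21) for SNAI1, and the intervals of the last 3 held 1. The ZEB2 ratio came from 409 and 411 reads, and its interval takes the depth factors of the deposited values as given. Of the 6 genes, 2 were higher by at least 1.5-fold in FPKM + 1 and none was lower, where 12.6% of the 12605 genes were higher and 13.0% lower. At a common sum, which shifts the median gene by −0.44 here, neither stayed past 1.5-fold (ZEB1 0.41 and SNAI2 0.36). ZEB2, TWIST1 and TWIST2 turned negative there, at −0.16, −0.17 and −0.24. SNAI1, negative already, stood at −0.58, still within 1.5-fold. Without mitochondrial genes in the sum, ZEB1 and SNAI2 stayed past 1.5-fold at 0.92 and 0.85. ZEB2, TWIST1 and TWIST2 were then positive at 0.27, 0.31 and 0.27, and SNAI1 was at −0.10. This comparison shares the empty vector library with the preceding one, and the wild-type ZEB1 library is shared by the other pair, so the 3 comparisons are not independent.

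**Figure D3:**
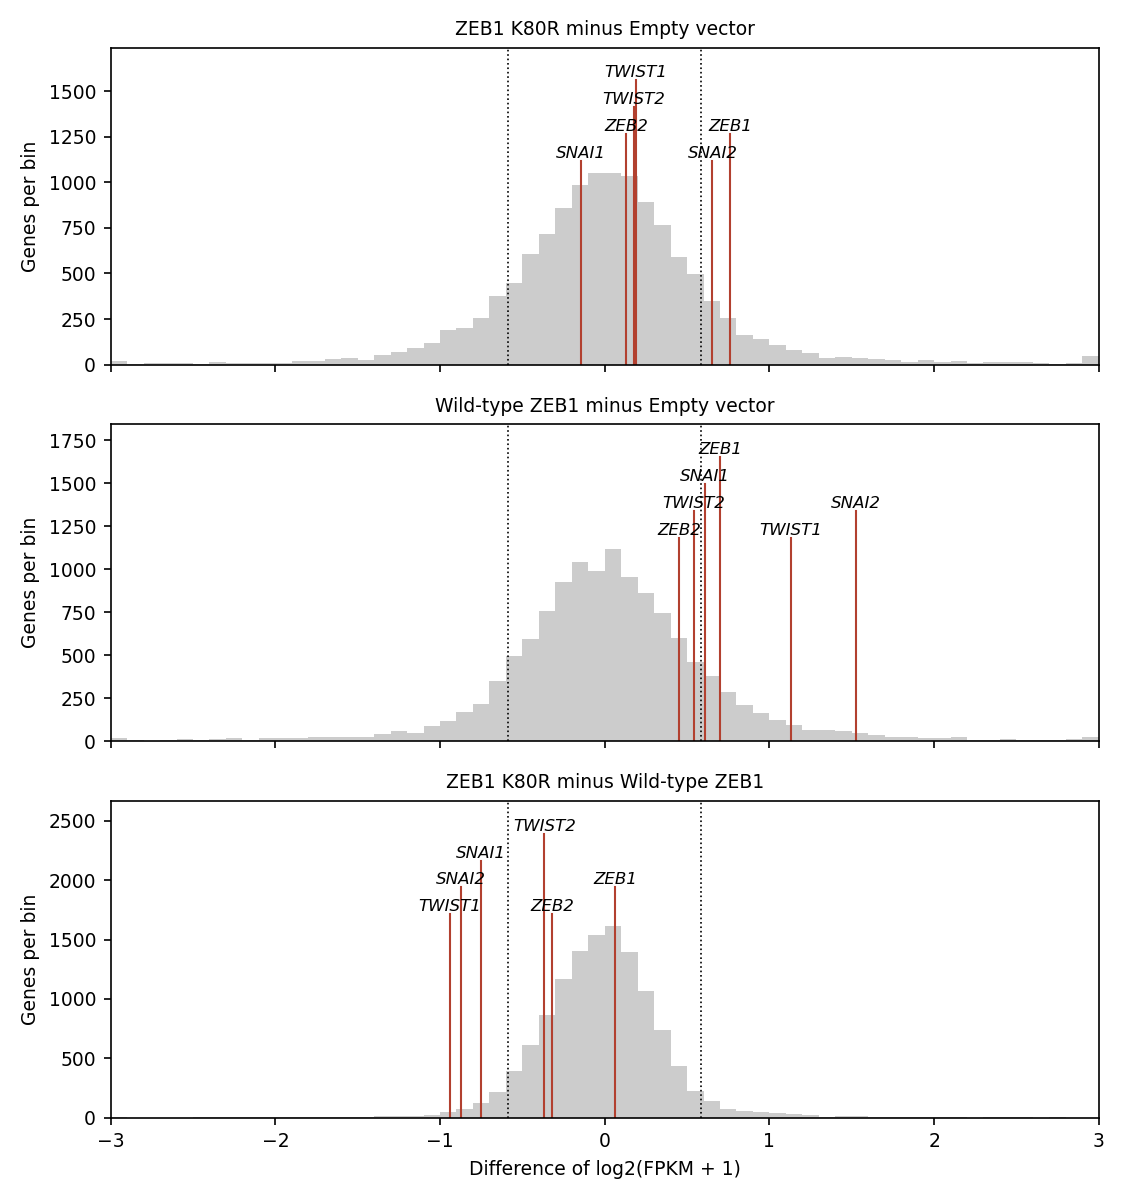
Number of genes per bin of 0.1 in the difference of log2(FPKM + 1) over 12605 genes with a mean of at least 1 FPKM (grey), for the 3 comparisons; red lines mark the 6 measured factors, dotted lines a ratio of 1.5, and genes past 3 are gathered in the outer bins. TWIST1, SNAI2 and SNAI1 lie in the lower tail of ZEB1 K80R minus wild-type ZEB1, and SNAI2 and TWIST1 in the upper tail of wild-type ZEB1 minus empty vector.

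The table assigns the factors to transcription factor families, which sets them beside their relatives. Of 314 measured C2H2 zinc-finger genes, 8 were at least 1.5-fold lower and 3 higher with ZEB1 K80R than with wild-type ZEB1, and SNAI2 and SNAI1 were among the 8. That is 2.55% lower and 0.955% higher, below the 5.18% lower and 4.42% higher of all genes. The lowest difference among them was that of EGR1, an immediate early factor, at 2.54 FPKM with ZEB1 K80R, 7.58 with wild-type ZEB1 and 1.18 with the empty vector. Of 41 measured bHLH genes, 6 (14.6%) were lower and 0 higher, and these included TWIST1, its inhibitor ID3 and BHLHE40, a hypoxia-responsive repressor. BHLHE40 stood at 37.2, 91.6 and 29.1 FPKM in the ZEB1 K80R, wild-type ZEB1 and empty vector libraries. BHLHE40 was named after its values were seen. Against the empty vector, 4 of the 41 bHLH genes (9.76%) were higher and 7 (17.1%) lower with ZEB1 K80R, where 12.6% and 13.0% of all genes were. With wild-type ZEB1, 11 (26.8%) were higher and 4 (9.76%) lower, where 14.2% and 11.1% of all genes were. Of 54 measured homeobox genes, the family of PRRX1, 3 were higher and 0 lower with ZEB1 K80R than with wild-type ZEB1.

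The genes closest to each factor over the 3 libraries were found by their differences from the empty vector library, among 6535 or 6536 other protein-coding genes with a mean of at least 5 FPKM. For SNAI2 only CD83, a surface protein of activated immune cells, lay within 0.1 on the log2(FPKM + 1) scale of both differences, at 6.09, 13.0 and 3.65 FPKM in the ZEB1 K80R, wild-type ZEB1 and empty vector libraries. The next was SLC2A3, a glucose transporter, at 22.5, 47.5 and 15.1 FPKM. For TWIST1, 3 genes lay that close, namely PPP2R5B, a phosphatase subunit, at 6.16, 12.3 and 5.26 FPKM, EHD1, of endosomal recycling, at 15.1, 31.9 and 13.5 FPKM, and ESM1, a secreted proteoglycan, at 8.77, 16.6 and 7.15 FPKM. For SNAI1 there were 7, led by INSIG2, a regulator of sterol synthesis, at 11.3, 20.8 and 12.8 FPKM. ZEB1 had 57 genes that close, led by MRPL32, a mitochondrial ribosomal protein, at 12.0, 11.3 and 6.63 FPKM, and by SIN3A, a corepressor scaffold, at 7.86, 7.65 and 4.30 FPKM. TWIST2 had 127 (1.94% of the genes compared) and ZEB2 156 (2.39%), more than the other factors. ZEB2 had a mean of 1.35 FPKM, and adding 1 to FPKM understates the differences of so low a gene. With 3 libraries such likeness rests on a pair of differences and is a description only.

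Of 33 mesenchymal genes that EMT factors are known to raise, 25 were measured, and these were divided between higher genes and genes within 1.5-fold. In the ZEB1 K80R library 13 were at least 1.5-fold higher than with the empty vector, 1 was lower and 11 lay within, where 12.6% of all 12605 genes were higher and 13.0% lower. In the wild-type ZEB1 library 12 were higher, none was lower and 13 lay within, where 14.2% of all genes were higher and 11.1% lower. The median differences were 0.59 for ZEB1 K80R and 0.58 for wild-type ZEB1. Both medians were 0.18 at a common sum. SPOCK1, an extracellular proteoglycan, stood at 35.9, 29.6 and 11.9 FPKM in the ZEB1 K80R, wild-type ZEB1 and empty vector libraries. CDH2, the N-cadherin gene, stood at 33.3, 27.5 and 18.5 FPKM, and VIM, for vimentin, at 436, 546 and 283 FPKM. The lower gene was COL1A1, for type I collagen, at 0.680, 0.930 and 1.70 FPKM, and the receptor AXL, within 1.5-fold, stood at 151, 146 and 173 FPKM in the same order.

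In ZEB1 K80R against wild-type ZEB1, 1 of the 25 mesenchymal genes was higher, 1 was lower and 23 lay within 1.5-fold, near the 4.42% higher and 5.18% lower of all genes, and the median difference was −0.18. The lower gene was the gelatinase MMP9, at 4.98 FPKM with ZEB1 K80R, 29.7 with wild-type ZEB1 and 2.13 with the empty vector. The higher was COL5A1, a fibrillar collagen, at 23.7, 14.7 and 17.1 FPKM in the same order.

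The epithelial genes that these factors repress were mostly below the minimum of 1 FPKM, the empty vector library included. Of 32 such genes, 7 were measured and 6 had no read in any library, CDH1 among them. In both comparisons with the empty vector 1 of the 7 was lower and none higher. Among all genes 13.0% were lower and 12.6% higher with ZEB1 K80R, and 11.1% lower and 14.2% higher with wild-type ZEB1. The lower gene was PKP3, a desmosomal plakophilin, at 2.56, 2.79 and 5.15 FPKM in the ZEB1 K80R, wild-type ZEB1 and empty vector libraries. In ZEB1 K80R against wild-type ZEB1 all 7 lay within 1.5-fold, as did most genes, with 5.18% of all genes lower and 4.42% higher. The median difference over the 7 was −0.27 there, and 0.19 at a common sum, where more genes pass the minimum.

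Factors that hold epithelial identity, such as the GRHL, OVOL and ESRP genes, were mostly unmeasured, with 14 of 28 at 0 reads throughout and 4 measured. Of the 14, 6 were the miR-200 precursor and host genes given above. FOXA2, a forkhead factor of gut and liver, stood at 1.36, 1.42 and 2.64 FPKM in the ZEB1 K80R, wild-type ZEB1 and empty vector libraries. GATA3, a luminal zinc-finger factor, stood at 1.99, 1.90 and 0.513 FPKM. In each comparison with the empty vector these genes counted as 1 lower and 1 higher. The shares of all genes were 13.0% lower and 12.6% higher with ZEB1 K80R, and 11.1% lower and 14.2% higher with wild-type ZEB1. Medians over the 4 genes were −0.34 for ZEB1 K80R and −0.51 for wild-type ZEB1. These medians depended on the settings: they were −0.14 and −0.25 with a minimum of 0.1 FPKM, 0 for both with no minimum, −0.53 and −0.69 at a common sum, and −0.08 and −0.43 at a common sum without mitochondrial genes. In ZEB1 K80R against wild-type ZEB1 all 4 lay within 1.5-fold, as did most genes, with 5.18% of all genes lower and 4.42% higher.

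**Figure D4:**
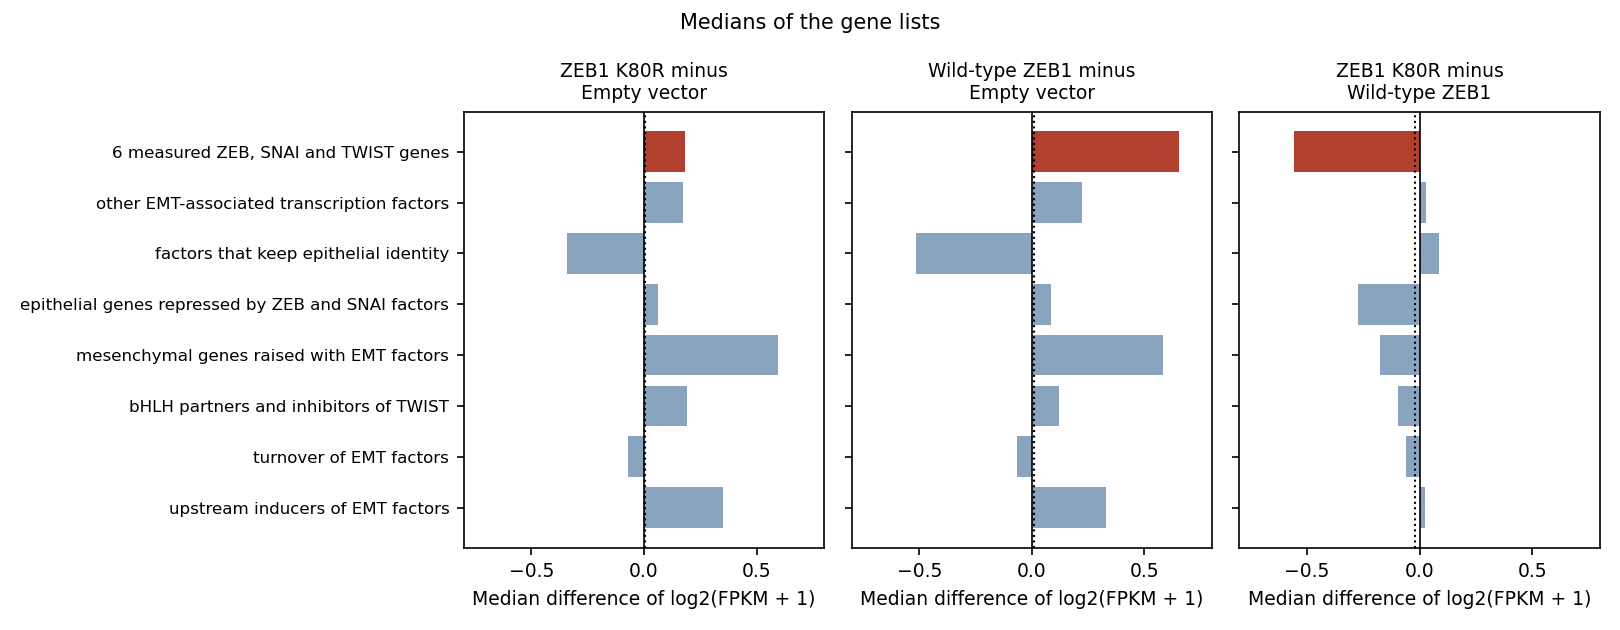
Median difference of log2(FPKM + 1) over the measured members of each gene list (bars), for ZEB1 K80R minus empty vector, wild-type ZEB1 minus empty vector and ZEB1 K80R minus wild-type ZEB1; dotted lines mark the median of all 12605 genes. The 6 measured factors (red) stand at 0.18, 0.65 and −0.56, and the mesenchymal list at 0.59, 0.58 and −0.18.

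Among other transcription factors tied to EMT, 20 of 30 were measured, and their counts lay near those of all genes. In ZEB1 K80R against wild-type ZEB1, 1 was lower, none was higher and 19 lay within 1.5-fold, where 5.18% of all genes were lower and 4.42% higher. The median was 0.03. The lower gene was the AP-1 subunit FOSL1, at 104 FPKM with ZEB1 K80R, 193 with wild-type ZEB1 and 56.9 with the empty vector. Against the empty vector, 3 were higher and 2 lower with ZEB1 K80R (median 0.17), and 3 were higher and 1 lower with wild-type ZEB1 (median 0.22). Over all genes 12.6% were higher and 13.0% lower with ZEB1 K80R, and 14.2% higher and 11.1% lower with wild-type ZEB1. These medians were −0.23 and −0.24 at a common sum. HMGA2, a chromatin protein that acts upstream of SNAI1 and TWIST1, stood at 28.0, 23.0 and 16.8 FPKM in the ZEB1 K80R, wild-type ZEB1 and empty vector libraries, and YBX1, a cold-shock protein that promotes SNAI1 translation, at 383, 464 and 219 FPKM.

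Among the partners and inhibitors of TWIST, ID1 and ID2 passed 1.5-fold in opposite directions in ZEB1 K80R against the empty vector. In wild-type ZEB1 against the empty vector ID1 differed by −0.23, within 1.5-fold. TCF3, an E protein that pairs with TWIST, stood at 15.6, 16.7 and 13.5 FPKM in the ZEB1 K80R, wild-type ZEB1 and empty vector libraries. ID proteins take E proteins away from such pairs, and ID1 stood at 23.0, 31.6 and 37.4 FPKM, ID3 at 3.22, 5.57 and 5.88 FPKM and ID2 at 2.32, 1.58 and 0.228 FPKM in the same order. The ID2 values came from 68, 48 and 8 reads. Of 5 measured genes, 1 was higher and 2 lower in ZEB1 K80R against the empty vector, where 12.6% of all genes were higher and 13.0% lower. In wild-type ZEB1 against the empty vector 1 was higher and none lower, where 14.2% of all genes were higher and 11.1% lower. In ZEB1 K80R against wild-type ZEB1, 1, ID3, was lower and none higher, where 5.18% of all genes were lower and 4.42% higher. The medians of the 3 comparisons were 0.19, 0.12 and −0.10, and at a common sum they were −0.20, −0.29 and 0.02.

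The genes that set the turnover of these proteins include ubiquitin ligases, kinases and deubiquitinases. All 27 measured lay within 1.5-fold in ZEB1 K80R against wild-type ZEB1, with a median of −0.06. So did most genes, as 5.18% of all genes were lower and 4.42% higher in that pair. Against the empty vector 1 of the 27 was higher and 3 lower with ZEB1 K80R. With wild-type ZEB1 2 were higher and 2 lower, and the medians were −0.07 in both. At a common sum these medians were −0.51 and −0.52, beside shifts of the median gene of −0.44 and −0.46. Over all genes 12.6% were higher and 13.0% lower with ZEB1 K80R, and 14.2% higher and 11.1% lower with wild-type ZEB1. FBXO45, a ubiquitin ligase subunit that targets EMT factors, stood at 10.95, 11.4 and 22.8 FPKM in the ZEB1 K80R, wild-type ZEB1 and empty vector libraries, and SKP1, a core subunit of such ligases, at 8.53, 9.88 and 15.5 FPKM. STUB1, a chaperone-linked ligase, stood at 24.9, 33.7 and 46.8 FPKM, and the deubiquitinase OTUB1 at 16.4, 18.9 and 9.37 FPKM.

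Upstream inducers were measured in 25 of 26 cases. In ZEB1 K80R against wild-type ZEB1, 2 were lower and none was higher, where 5.18% of all genes were lower and 4.42% higher. The median was 0.02. The lower genes were EGR1, given above, and the NF-κB subunit NFKB1, at 8.51 FPKM with ZEB1 K80R, 15.4 with wild-type ZEB1 and 10.4 with the empty vector. Against the empty vector 5 were higher and none lower with ZEB1 K80R (median 0.35, and 0.02 at a common sum), and 6 were higher and none lower with wild-type ZEB1 (median 0.33, and −0.12 at a common sum). Of all genes, 12.6% were higher and 13.0% lower with ZEB1 K80R, and 14.2% higher and 11.1% lower with wild-type ZEB1. TGFB1, the ligand that induces SNAI and ZEB genes, stood at 109, 156 and 74.6 FPKM in the ZEB1 K80R, wild-type ZEB1 and empty vector libraries. RELA, the NF-κB subunit that activates SNAI and TWIST genes, stood at 16.3, 23.2 and 10.9 FPKM, and TCF7L2, a Wnt effector, at 6.97, 5.75 and 3.44 FPKM.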

How the data were processed

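RNA sequencing libraries of cells labelled HCT116 were analysed, 1 each for ZEB1 K80R, wild-type ZEB1 and empty vector, grouped by the genotype in the labels. The authors deposited FPKM values with gene names, lengths and GRCh38 coordinates. Per the submitters' processing notes, the tools were featureCounts 1.5.0-p3, CASAVA and DESeq2 1.20.0 and the build hg38, with no roles stated. The sources used here give no aligner, strand setting or annotation.

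Multiplied by gene length, 100% of the FPKM values above 0 fell on whole steps (tolerance 0.05 reads), which gave reads per gene. Ratios of FPKM carry exact conditional (Clopper-Pearson) 95% intervals and levels exact Poisson intervals, limited to counting error, since PCR copies are not independent molecules. Differences were taken as log2(FPKM + 1), a pseudocount of 1 that understates differences of low genes, over genes with a mean of at least 1 FPKM. A gene was called at a ratio of FPKM + 1 of at least 1.5. With 1 library per group no test was possible. Members and lists were chosen with earlier results of these data known. Named genes were the 7 members, their overlapping and antisense genes, up to 4 genes with the largest difference per list, VIM, CDH1 and CDH2, and up to 5 genes of like pattern per member; BHLHE40, NFKB1, COL5A1, COL1A1, AXL, SPARC, SNAI3, PRRX2 and the markers named were added after their values were seen. Of the 13 genes that overlap a member or carry its name, 8 had 0 reads throughout. Sequences came from RefSeq (GRCh38.p14) and GENCODE 29. The calculations were checked on simulated data. Python 3.11.15, pandas 2.3.3, numpy 2.4.6 and scipy 1.17.1 were used.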

Additional observations from a re-analysis of the deposited data

How the results depend on the processing

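No paired analysis was possible because each group had 1 library, and leaving out a library ends a comparison. Of 117 member differences recomputed under 7 alternatives, 9 moved beyond counting error and 3 changed sign, all in ZEB1 K80R against the empty vector at a common sum (given above). The count of factors at least 1.5-fold higher was 0 in place of 2 for ZEB1 K80R against the empty vector at a common sum, but stayed at 2 without mitochondrial genes in the sum. For wild-type ZEB1 against the empty vector it was 2 in place of 4 at a common sum and 2 at a mean of at least 5 FPKM, where fewer genes are tested, but 6 with a pseudocount of 0.1 and 5 at a common sum without mitochondrial genes. At a minimum of 5 FPKM, 1 in place of 3 was lower in ZEB1 K80R against wild-type ZEB1. List genes past 1.5-fold numbered 52 in place of 30 for wild-type ZEB1 against the empty vector at a common sum, and 13 in place of 6 for ZEB1 K80R against wild-type ZEB1 at a common sum without mitochondrial genes, a scaling that shifts the median gene of that pair by 0.16.

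All genes past 1.5-fold numbered 3232 for ZEB1 K80R against the empty vector, 3186 for wild-type ZEB1 against the empty vector and 1210 for ZEB1 K80R against wild-type ZEB1. In that order they numbered 5246, 4878 and 2517 with a minimum of 0.1 FPKM and also with none, 1725, 1687 and 496 with a minimum of 5, 8332, 8515 and 3404 at a common sum, and 7585, 7370 and 4696 at a common sum without mitochondrial genes. With a pseudocount of 0.1 the last pair had 1972. The share of higher among them was 49.3%, 56.1% and 46.0% as deposited, 26.0%, 24.0% and 56.8% at a common sum, and 63.1%, 51.0% and 70.7% without mitochondrial genes. Rescaling to a common sum raised all values while the minimum and the pseudocount stayed at 1. Genes tested numbered 17153 at a common sum and 18336 without mitochondrial genes, in place of 12605. The shift of the median gene at a common sum follows from the FPKM sums. These were 303683 with ZEB1 K80R, 307544 with wild-type ZEB1 and 223875 with the empty vector. Why the sums differed was not tested. Depth limits PRRX1, which had at most 3 reads.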
